A study of Rattus norvegicus with 16 samples.

Results

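This account concerns miR-21 and its partner from the opposite arm of the same hairpin, miR-21*, in the hearts of newborn rats. The members were the rows of the array named rno-miR-21 and rno-miR-21*, 2 of the 677 rat miRNAs on it. Hearts came from 2-day-old rats of the HHR strain, whose heart size is labelled hypertrophic, and of the NHR strain, labelled as having normal hearts. Each strain had 4 females and 4 males, 1 Agilent miRNA array per animal with no pooling, and no treatment is named besides the overdose of pentobarbitone that ended the animals' lives. The labels describe the tissue as whole heart in one place and as ventricles separated from the atria in another, so which of them was used could not be settled here. The question set by the design was which miRNAs differ between the hearts of the 2 strains at this age.

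miRNAs are short RNAs cut from a hairpin precursor by Drosha and then Dicer, and they repress mRNAs that pair with the seed near their 5′ end. Usually one arm of the hairpin is loaded into Argonaute and accumulates, while the other, written with an asterisk on this array, is mostly degraded. miR-21 is a stress-responsive miRNA found in many tissues. In the adult heart it is abundant in fibroblasts, rises in pressure overload and after infarction, and is known to repress Spry1 and Pdcd4, and miR-21* has been described as a product that cardiac fibroblasts secrete.

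Both members matched a mature RefSeq entry of the GRCr8 rat assembly, miR-21 the 5p arm and miR-21* the 3p arm. They are shown because the arms have separate probes on the array and share no seed, and so pair with separate sites. Capitals mark the seed, bases 2 to 8 from the 5′ end.
rno-miR-21-5p: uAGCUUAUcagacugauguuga
rno-miR-21-3p: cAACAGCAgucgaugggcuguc
In GRCr8 the first lies at chr10:71902653-71902674 and the second at chr10:71902615-71902636, both on the minus strand. Each seed occurred in 1 of the 724 mature rat entries of that table, so no other listed rat miRNA had the seed of either arm. The hairpin of 92 bases, at chr10:71902600-71902691, is printed with both mature arms in capitals, and it shows the 5p arm at bases 18 to 39 and the 3p arm at bases 56 to 77.
Mir21 hairpin: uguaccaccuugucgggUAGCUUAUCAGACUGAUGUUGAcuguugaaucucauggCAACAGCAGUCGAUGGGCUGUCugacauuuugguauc
No annotated gene spanned the hairpin. The closest gene upstream on the same strand was Vmp1, which encodes an autophagy membrane protein, at chr10:71903223-72002337. Its annotated 3′ end lies 532 bases upstream of the first base of the hairpin.

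Signals are processed intensities from the scanner on a linear scale, averaged over spots and then over the probes of a miRNA. A scaled signal was divided so that all 16 arrays had the same 75th percentile over the 258 probes that were well above background on every array. Each array detected 200 to 239 miRNAs. Those found on at least 4 arrays, 233 in all, were tested, and no spot was saturated. Before scaling, HHR arrays had a 75th percentile of 417.7 to 525.2, 3 NHR arrays lay between 442.7 and 502.9, and 5 NHR arrays lay between 294.7 and 326.8. A level in heart RNA does not tell fewer cells of a type from less of a miRNA per cell. Of 4 cardiomyocyte markers, miR-1, miR-133a and miR-499 were detected on all 16 arrays and miR-208 on none, and the liver, neural and epithelial lists were at 0 detected members.

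miR-21 was one of the brightest miRNAs of the newborn heart. It was detected on 16 of 16 arrays and ranked 3 of 677 by scaled signal on 9 arrays and 4 on the other 7, with the rank of 3 on 5 HHR and 4 NHR arrays. It held 4.18% ± 0.148 of the summed miRNA signal of an array (SD, n = 16). By mean log2 scaled signal the order was miR-133b at 12.66 ± 0.094, miR-1 at 12.55 ± 0.090, let-7a at 11.28 ± 0.076, miR-21 at 11.27 ± 0.083, miR-130a at 10.82 ± 0.036 and let-7f at 10.75 ± 0.062 (SD, n = 16). miR-133b and miR-1 are the muscle miRNAs, let-7a and let-7f belong to a family that accumulates as cells differentiate, and miR-130a is found in endothelium among other cells. miR-21 and let-7a did not differ beyond their spread, with let-7a the higher on 7 arrays and miR-21 on 9. miR-1 was above miR-21 on 16 of 16 arrays, and miR-130a and let-7f were below it on 16 of 16. Signals of different probes are not calibrated against each other, so these ranks order signals and not copy numbers.

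**Figure D1:**
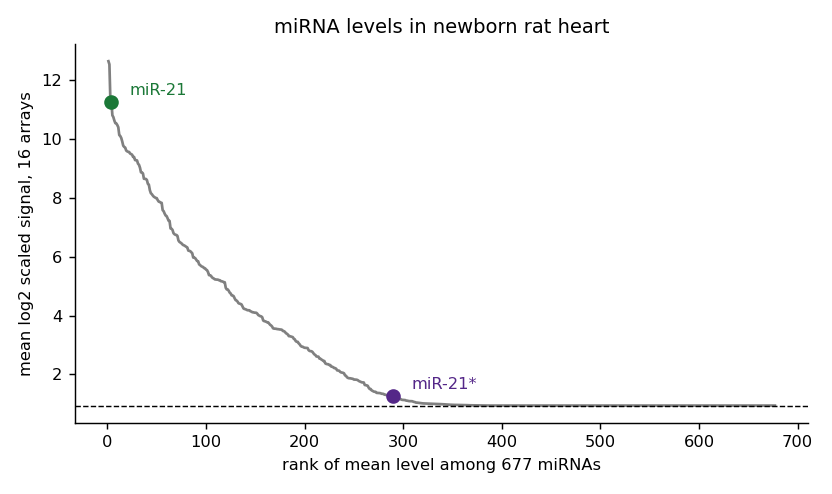
Mean log2 scaled signal of the 677 miRNAs over 16 arrays, in order of rank, with miR-21 (green) and miR-21* (purple) marked and the floor of 0.94 dashed. miR-21 sits at rank 4 of the mean, on the steep left end of the curve, and miR-21* at rank 290, at 1.26, before the curve meets the floor.

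In HHR hearts the scaled signal of miR-21 ran from 2288 through a median of 2371 to 2447, and in NHR hearts from 2395 through 2628 to 2727. Among HHR females the 4 values were 2403, 2337, 2309 and 2288, and among HHR males 2373, 2401, 2368 and 2447. Among NHR females they were 2665, 2395, 2633 and 2682, and among NHR males 2727, 2492, 2480 and 2623. HHR arrays lay close together and NHR arrays were higher and more spread, with 5 HHR arrays below all NHR arrays and 7 NHR arrays above all HHR arrays. NHR female 2, at 2395, lay within the HHR range, so the strains overlapped, whereas for 14.2% of the miRNAs tested they did not.

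The strain difference in scaled miR-21 was small and its sign depended on the scaling. On the log2 scale the level was 11.21 ± 0.032 in HHR hearts and 11.34 ± 0.066 in NHR hearts (SD, 8 arrays each), a difference of -0.13 ± 0.029 (SE, 95% interval -0.19 to -0.07), 1.09-fold lower in HHR, with a limma adjusted p of 0.00252 over the 233 miRNAs tested. miR-21 was lower in HHR in this fit, as were 45.5% of all miRNAs tested, and 54.5% were called in either direction. The median difference over all 233 was -0.11, so relative to it miR-21 differed by -0.02. Without any scaling the order of the strains turned. HHR arrays then had miR-21 signals of 2333 to 2977 with a median of 2607, and NHR arrays 1724 to 3123 with a median of 2049, a log2 difference of 0.21 ± 0.13 (SE, limma adjusted p = 0.179). The 5 dim NHR arrays held the 5 values below all HHR arrays, 1724 to 2054, and the 3 bright ones 2738 to 3123. Overall array brightness thus moved with strain. With brightness as a covariate the scaled difference was -0.13 (limma adjusted p = 0.0166), and over the 11 arrays with an unscaled 75th percentile above 400 it was also -0.13 (adjusted p = 0.0117). The median of all tested miRNAs was then -0.06 and -0.05, so relative to it miR-21 differed by -0.07 and -0.08. Within the slides, each of which held 2 arrays of every group, it was -0.11 on slide 1 (adjusted p = 0.163) and -0.15 on slide 2 (adjusted p = 0.0449).

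**Figure D2:**
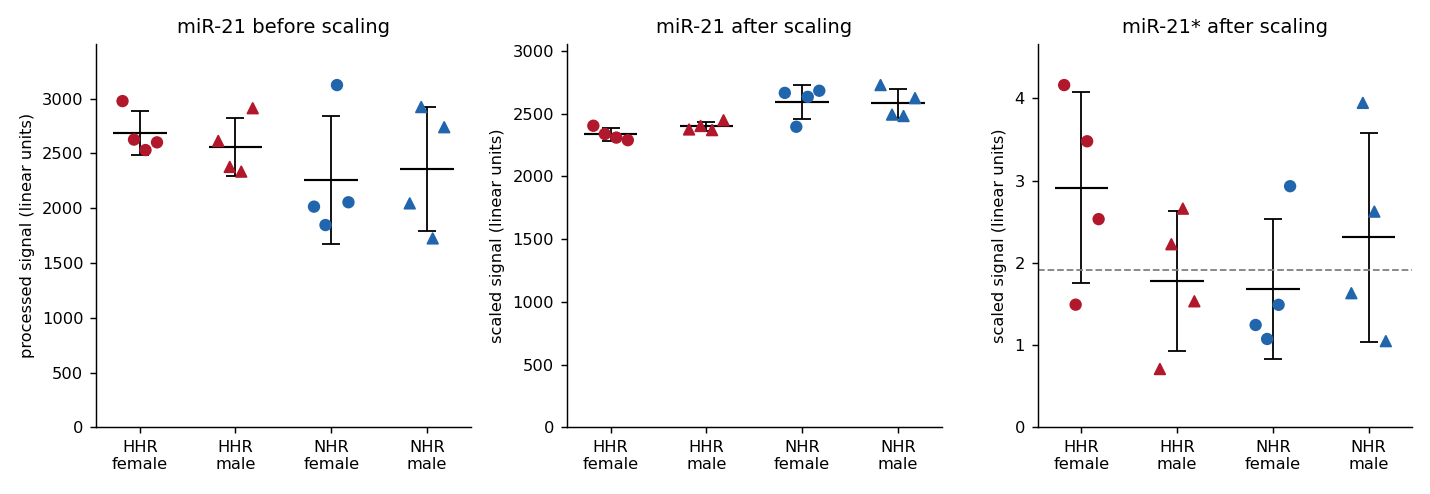
Signal of miR-21 before and after scaling and of miR-21* after scaling, in linear units, for each array (points), with the mean and SD of each strain and sex (bars, n = 4). Before scaling the NHR arrays split, from 1724 to 2054 and from 2738 to 3123, after scaling miR-21 lies between 2288 and 2727 with NHR higher, an order that turns without scaling, and miR-21* lies near the dashed floor of 1.92.

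Under 5 other scalings of the same signals, the miR-21 difference moved with the median of all miRNAs, and with another background correction or in the authors' table it lay apart from it. The median of all tested miRNAs moved from -0.11 to 0.03 with quantile normalization and with median centring, to 0.13 with spike-in scaling, to 0.17 with a percentile over all probes and to 0.23 with no scaling. miR-21 gave 0.01 under the first 2 of these (limma adjusted p = 0.775 and 0.875), 0.11 with spike-in scaling (adjusted p = 0.577) and 0.15 with the percentile over all probes, where it was called higher in HHR (adjusted p = 0.0154), as were 57.5% of miRNAs tested, with 9.01% lower. Relative to the median of all tested, it lay between -0.022 and -0.018 under these scalings, no scaling and the reported one. All of these but quantile normalization divide each array by 1 factor, which shifts every miRNA above the floor alike. The near-constant value was thus largely set by the arithmetic. The scanner's total gene signal was also read in place of the processed signal and scaled to its own 75th percentile. It gave -0.07 (adjusted p = 0.133), which was -0.05 relative to the median. A normexp background, which fits 1 background model per array over all its spots and here adds an offset of 50, gave -0.09 (adjusted p = 0.0354). That was 0.11 above the median of -0.20, where 162 of the 233 miRNAs tested were called lower in HHR and 2 higher. The offset is added before arrays are scaled and is small beside the signal of miR-21. Its part in this gap was not tested. In the authors' deposited table, on a log2 scale whose centring is unknown, miR-21 ran from 10.79 to 11.18 in HHR and from 10.36 to 11.21 in NHR, and the fit to it gave 0.19 (limma adjusted p = 0.270), which was 0.12 above the median of 0.07. No direction of a strain difference in miR-21 held under all of these settings.

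**Figure D3:**
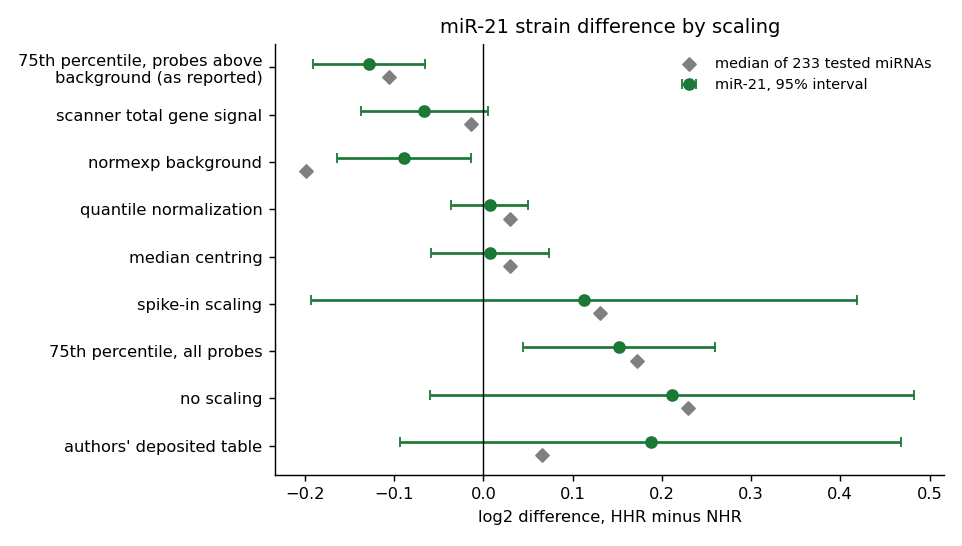
Log2 difference of miR-21 between HHR and NHR (green, with 95% intervals from limma, 8 arrays against 8) and the median difference of all 233 tested miRNAs (grey) under 9 ways of processing, which differ in scaling, background or signal summary. miR-21 runs from -0.13 as reported to 0.21 with no scaling, changing sign, and the median moves from -0.11 to 0.23 between those settings, with miR-21 0.11 above it under normexp and 0.12 above it in the authors' deposited table.

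The share of an array's summed signal held by miR-21 does not depend on scaling. In HHR it ran from 3.90% to 4.27% and in NHR from 3.95% to 4.42%, and the ranges overlapped over most of their width. HHR hearts averaged 4.13% ± 0.121 and NHR hearts 4.22% ± 0.167 (SD, 8 arrays each). The difference of -0.0878 percentage points did not pass the exact permutation test over all splits of the arrays (two-sided p = 0.249, 0.508 after adjustment over 4 tests). Males had 4.21% ± 0.138 and females 4.14% ± 0.160 (n = 8 each, two-sided exact permutation p = 0.384, adjusted p = 0.513).

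Sex made no difference that could be called. In the scaled values males exceeded females by 0.02 ± 0.029 on the log2 scale (SE, 95% interval -0.05 to 0.08, limma adjusted p = 0.970), and 0% of the 233 miRNAs were called by sex, with 23 at an unadjusted p under 0.05. The strain difference was -0.15 ± 0.041 in females (adjusted p = 0.0119), where 45.1% of miRNAs were called, and -0.11 ± 0.041 in males (adjusted p = 0.0919), where 20.6% were called. The test of the difference between the sexes gave 0.05 ± 0.058 (limma adjusted p = 0.943), so the call in females alone does not show that the sexes differ. The interaction fit called 0% of the miRNAs, with 9 at an unadjusted p under 0.05.

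In the reported scaling both probes of miR-21 were lower in HHR, and the direction depended on the scaling. Probe A_26_P00001210 had scaled signals of 3862 to 4103 in HHR and 4030 to 4619 in NHR, and probe A_26_P00001211 had 714.2 to 790.5 and 760.2 to 849.4. In each, the HHR range lay lower and met the NHR range. The differences in scaled signal were -0.13 ± 0.029 (limma adjusted p = 0.00196) and -0.12 ± 0.032 (adjusted p = 0.00640) on the log2 scale, both called lower among 355 probes of which 56.3% were called and 46.8% were lower. Without scaling they were 0.21 and 0.22 (adjusted p = 0.159 and 0.162), so the sign turned in both, as it did for the averaged miRNA. Under quantile normalization they went opposite ways, 0.02 and -0.01, and neither was called (adjusted p = 0.467 and 0.846). The 10 spots of a probe varied within an array with a median coefficient of variation of 4.05% for the brighter and 2.33% for the dimmer probe.

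The probes differed in brightness by a nearly fixed factor. The gap was 2.40 ± 0.032 on the log2 scale (SD, n = 16 arrays, range 2.35 to 2.47), or 5.29-fold, and it was 2.40 ± 0.029 in HHR and 2.41 ± 0.035 in NHR. Over the 16 arrays the probes correlated at r = 0.928, a description in which both share array and scaling. Among the 104 miRNAs with 2 such probes, 84 had a smaller gap in level than miR-21, where the median was 1.46. For the gap between the probes' strain differences, 0.0113 for miR-21, 48 were smaller and the median was 0.0123. The level read for miR-21 thus depended on the probe far more than its difference between strains did.

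**Figure D4:**
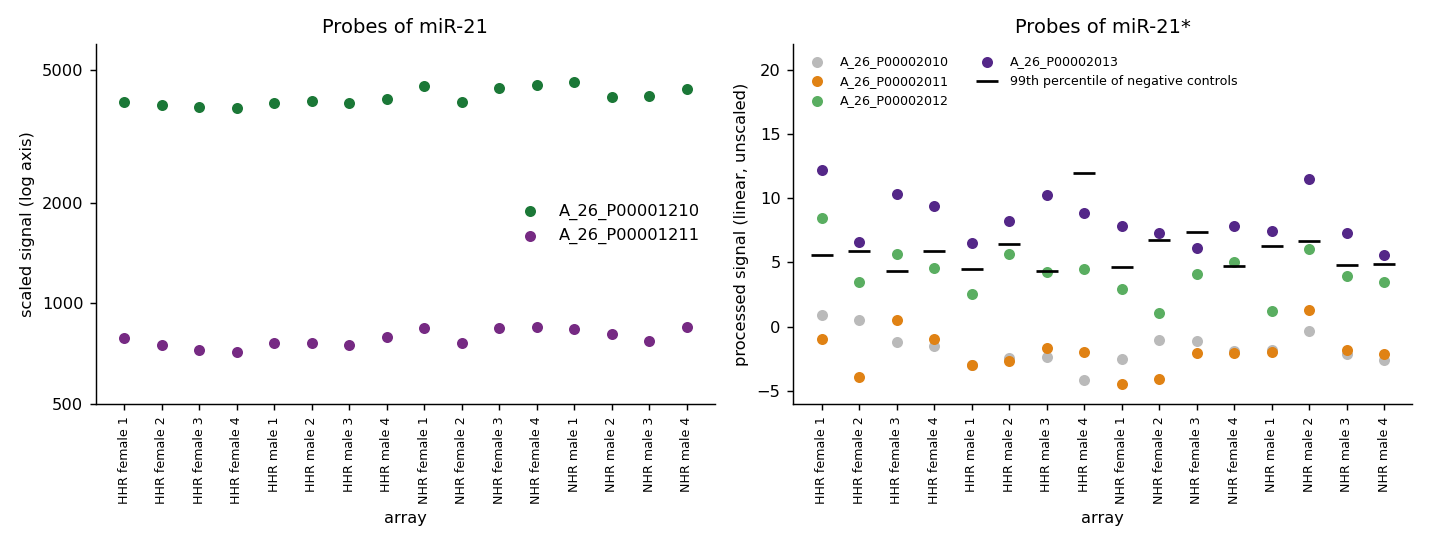
Left, scaled signal of both miR-21 probes on each array (log axis). Right, processed signal of the 4 miR-21* probes before scaling (linear axis), with the 99th percentile of the negative-control spots of each array as a bar. The miR-21 probes keep a 5.29-fold gap on every array within 2.35 to 2.47 log2 units, and of the miR-21* probes A_26_P00002013 lies above the bar on 14 arrays.

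miR-21* was at the edge of detection. The scanner software called it detected on 6 of 16 arrays, 5 HHR and 1 NHR. All 6 were among the 11 arrays with an unscaled 75th percentile above 400, and none of the 5 dimmer arrays, all NHR, detected it. Scaled signals were 4.16, 1.49, 3.48 and 2.53 in HHR females, 0.71, 2.23, 2.66 and 1.53 in HHR males, 1.24, 1.07, 1.49 and 2.93 in NHR females, and 1.63, 3.94, 2.62 and 1.05 in NHR males. Every group had arrays on both sides of the floor of 1.92, the median over arrays of the dimmest detected miRNA, and 3 HHR and 5 NHR arrays were below it. By mean level miR-21* ranked 290, between miR-206* and miR-369-3p above and miR-331* and miR-24-1* below, none of which it differed from beyond the spread, and of which miR-331* was detected on 1 array and the others on 0.

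The 4 probes of miR-21* did not read alike. A_26_P00002010 and A_26_P00002011 were at or below 0 after background subtraction on 14 of 16 arrays each, and ran from -4.14 to 0.91 and from -4.44 to 1.27. A_26_P00002012 ran from 1.10 to 8.45 and exceeded the 99th percentile of the 182 negative-control spots on 3 arrays. A_26_P00002013 ran from 5.60 to 12.2 and exceeded it on 14 arrays, 7 in each strain. Over all 16 arrays that percentile was 4.32 to 12.0. For that last probe the scaled signal was 5.89 to 10.4 in HHR and 5.17 to 10.5 in NHR, and the strains overlapped almost fully. On no array did most spots of any of these probes carry the flag for well above background, which 5 of 80 spots of A_26_P00002013 and 0 of 80 of each other probe did. The signal of miR-21* thus came from 2 of its 4 probes.

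In the reported scaling no strain or sex difference in miR-21* was detectable at this signal. miR-21* reached the filter of 4 arrays through HHR, being detected on 5 HHR arrays and 1 NHR array. Its entry into the test was thus not independent of strain. The log2 difference between strains was 0.12 ± 0.19 (SE, 95% interval -0.28 to 0.52, limma adjusted p = 0.594), and no fold is given because the probes were not well above background in either strain. It was 0.44 ± 0.26 in females (adjusted p = 0.186) and -0.20 ± 0.26 in males (adjusted p = 0.599), with an interaction of -0.64 ± 0.37 (limma adjusted p = 0.929). Males minus females gave -0.10 ± 0.19 (adjusted p = 0.970). With normexp the strain difference took the other sign, -0.24, and was called (limma adjusted p = 0.0394), where the median of all tested miRNAs was -0.20. Of the 233 tested, 162 were called lower in HHR in that setting and 2 higher. That setting adds an offset of 50 to each spot before arrays are scaled, which is large beside the scaled miR-21* signals of 0.71 to 4.16. No strain difference in miR-21* is read from that call.

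The arms differed in signal by about 10.01 ± 0.429 log2 units on the same array (SD, n = 16), with miR-21* set to the floor of 1.92 where it was lower. On the 8 arrays where miR-21* was at the floor, miR-21 was at least 1219-fold to at least 1422-fold brighter. On the other 8 the signals stood 578-fold to 1079-fold apart, with miR-21* flagged as detected on 5 of them. Different probes read the arms, and the probes of miR-21 alone were 5.29-fold apart, so these are ratios of signal. Between strains the log2 arm difference averaged 9.89 ± 0.428 over HHR arrays and 10.13 ± 0.420 over NHR arrays (SD, 8 each). Its strain difference was set in part by the floor, which held miR-21* on 3 HHR and 5 NHR arrays. It was -0.25 at the reported floor (two-sided exact permutation test over all splits, p = 0.254, adjusted p = 0.508 over the same 4 tests), -0.13 with a floor 4 times higher and -0.35 with one 4 times lower. No strain difference in the arms is read from it. Males minus females gave 0.12 (two-sided exact permutation p = 0.596, adjusted p = 0.596), with the same limit.

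Of 259 hairpins with both arms on the array, 22 had both arms detected on all 16 arrays. Their arm differences ran from 0.03 to 8.71 log2 units with a median of 2.53. The 3 largest were miR-1 at 8.71, miR-106b at 7.48 and miR-99a at 6.50, and the 3 smallest miR-652 at 0.03, miR-490 at 0.10 and miR-133a at 0.27. Although flagged as detected, miR-106b* had a mean log2 level of 1.18, near the floor of 0.94, so the floor may limit its difference too. The hairpin of miR-21 was not among these 22. Like it, 106 others had an arm detected on all 16 arrays and a partner detected on fewer, on none in 87 of them. In these the floor limits the difference, so a brighter leading arm gives a larger one. Their median was 4.41, and miR-133b at 11.72 lay above miR-21, with miR-130a at 9.88, miR-16 at 9.62 and let-7i at 9.54 next below it. These 4 were named after their values were seen.

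**Figure D5:**
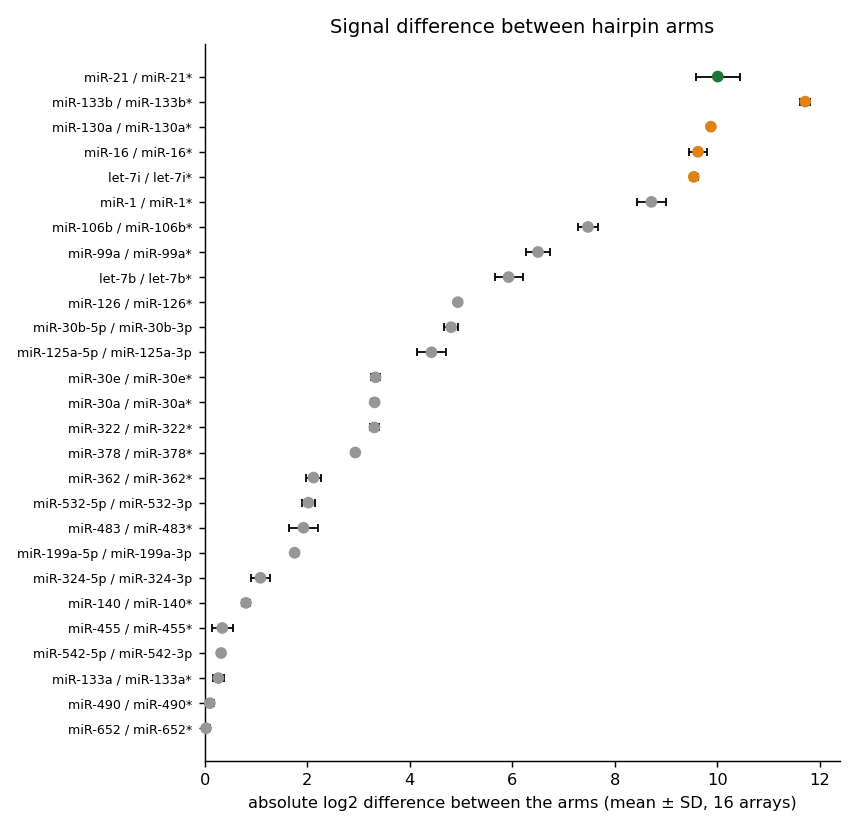
Absolute log2 difference in scaled signal between hairpin arms, as mean and SD over 16 arrays, for the 22 hairpins with both arms detected on all 16 arrays (grey), the 4 largest of the 106 with only 1 arm detected on all of them (orange) and miR-21 (green). miR-21, whose 3p arm was near background, lies at 10.01, below miR-133b at 11.72, close to miR-130a at 9.88 and above the largest grey point at 8.71.

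The miRNAs whose level followed that of miR-21 most closely over the 16 arrays were miR-27a (r = 0.932), miR-24 (r = 0.909), miR-30c (r = 0.876), miR-103 (r = 0.876) and miR-193 (r = 0.874), out of 185 detected on all arrays, where the median was 0.478. With each array centred on its median the leading 5 were miR-27a (r = 0.818), miR-24 (r = 0.772), miR-30c (r = 0.690), miR-30e (r = 0.684) and miR-103 (r = 0.682), with a median of 0.130. All of these share arrays, scaling and strain differences of the same sign in the reported scaling, so the values are descriptions. miR-21* was not among them, with r = -0.258 in scaled levels and 0.199 after centring. For miR-21* itself the highest values were no more than 0.244 (miR-421*, miR-674-3p, miR-347, miR-378* and miR-34a), and after centring 0.528 (miR-103, followed by miR-130b, miR-361, miR-133a and miR-872).

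Other miRNAs described in cardiac fibrosis and stress were read from a list of 38, of which 37 were on the array and 35 were tested. In the reported scaling 4 were higher in HHR, 18 were lower and 13 were not called, with a median difference of -0.10. Of all 233 tested, 21 were higher (9.01%), 106 were lower and 106 were not called, with a median of -0.11. The 4 called members with the largest differences were miR-34a, induced by p53, at 0.96 ± 0.048 (limma adjusted p = 1.52e-09), miR-210, induced by hypoxia, at -0.42 ± 0.062 (adjusted p = 1.28e-04), miR-378, hosted by Ppargc1b, at 0.41 ± 0.034 (adjusted p = 3.26e-07), and miR-195, of the miR-15 family, at -0.34 ± 0.042 (adjusted p = 2.30e-05). All 4 kept their sign under the 5 other scalings whose medians are given above, where that of miR-21 turned. Those medians all lay above the reported one, so miR-34a and miR-378, higher in HHR, had little room to turn. miR-1 (-0.10 ± 0.041, limma adjusted p = 0.0526) and miR-29a, which represses collagen mRNAs (-0.16 ± 0.073, adjusted p = 0.0710), came closest to a call without reaching it. The split of the list followed the scaling. It was 9 higher and 7 lower under quantile normalization, where 24.5% of all tested were higher and 19.3% lower. With the percentile over all probes it was 26 higher and 0 lower, where 57.5% of all tested were higher and 9.01% lower. With median centring it was 9 higher and 4 lower beside 23.2% and 14.2% of all tested, with no scaling 8 and 0 beside 16.3% and 4.29%, and with spike-in scaling 3 and 0 beside 6.44% and 4.29%.

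Markers of cell types moved in different directions in the reported scaling. Of 3 fibroblast markers 1 was higher in HHR, with summed scaled signals of 1266 to 1688 against 1197 to 1475 in NHR. Of 5 leukocyte markers on the array 4 were tested and 3 were lower in HHR, with sums of 135.6 to 152.4 against 163.5 to 207.1. Both endothelial markers were lower, with sums of 982.2 to 1096 against 1178 to 1295, and so were both smooth muscle markers, with sums of 1288 to 1361 against 1418 to 1504. Of 4 cardiomyocyte markers 1 was lower, with sums of 5855 to 6697 against 5994 to 7147. These sums were mostly miR-1, which was not called. Of 2 erythroid markers 0 were called, with sums of 202.5 to 313.1 against 212.7 to 337.9. Of all miRNAs tested, 45.5% were lower and 9.01% higher in HHR in this scaling, the only one in which the sums were taken. Among the called markers, the lower miR-223 and miR-150 of leukocytes kept their sign under the other 5 scalings, as did the higher miR-199a-5p of fibroblasts. The medians under those 5 all lay above the reported one, so a higher marker had little room to turn. Among the lower ones, miR-146a of leukocytes turned under 1, miR-499 of cardiomyocytes under 2 and both endothelial markers under 3. The smooth muscle markers miR-143 and miR-145 turned under 4 and 5. The part of these markers in the miR-21 values was not tested.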

How the data were processed

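Total RNA (100 ng per animal) was labelled with Cy3 and hybridised to Agilent rat miRNA arrays, per the labels' protocols. Per the file headers, the files that the authors deposited for single arrays hold processed spot intensity on a linear scale, detrended and background-subtracted by Agilent Feature Extraction 10.7.3.1, and, as other values, detection and quality flags (0 or 1). The headers name the rn4 build. A table of log2 values by the authors, of unknown scaling and centring, was also deposited; the submitters' processing notes name limma, and it served as an alternative only.

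Control and outlier spots were left out, spots and then probes were averaged, arrays were scaled to a common 75th percentile (424), values were raised to a floor of 1.92, and log2 was taken. Tests covered the 233 of 677 miRNAs detected on 4 arrays or more, with limma 3.58.1 in R 4.3.3, 1 mean per strain and sex over all 16 arrays, Benjamini-Hochberg adjustment and a threshold of 0.05. Shares and arm differences were tested by two-sided exact permutation over 12870 splits. The script was tested on simulated data. The number of arrays limits the precision.

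The members and lists were chosen with earlier results of these data known. Named miRNAs followed a rule: both members, their rank neighbours, the 5 most alike, the 4 largest called and 2 closest uncalled list members, and the 3 largest and smallest arm pairs; miR-133b and the largest arm pairs with 1 arm near the floor were added after their values were seen.

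Alternatives covered the signal column, background, scaling, filter, floor, moderation, array weights, slide (each of the 2 slides held 2 arrays of every group and was also 1 scan), replicate number, brightness and leaving out each array.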

Additional observations from a re-analysis of the deposited data

Results flagged for a closer look

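In 1 of 20 checks, each of a measure within a strain-and-sex group of 4 arrays, 1 array stood apart from the other 3 by Dixon's criterion. The criterion marks about 1 in 20 by chance, and checks of the same group share their arrays. NHR female 2 had the lowest miR-21 level of its group, 11.23 on the log2 scale, while the other NHR females had 11.36 to 11.39.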

How the results depend on the processing

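The call of lower miR-21 in HHR held over leaving out each array (-0.15 to -0.11, limma adjusted p from 3.88e-04 to 0.00676) and over filters, floors, moderation and weights, but not over scalings, and the cause was not tested. It was 0.0071 with quantile normalization, 0.15 with the percentile over all probes, 0.21 with no scaling, 0.0078 with median centring, 0.11 with spike-in scaling and 0.19 in the authors' deposited table, -0.066 with the total gene signal, and -0.11 within slide 1 and -0.15 within slide 2 (adjusted p = 0.163 and 0.0449). With brightness as a covariate it was -0.13 (adjusted p = 0.0166), and -0.13 over the arrays above 400 (adjusted p = 0.0117), an alternative chosen after seeing the data. With replicate number as a block it was -0.13 (adjusted p = 0.00357), and this replicate block changed no call of the members. Same-numbered arrays correlated at a mean r of 0.150 (24 pairs, -0.425 to 0.592, 13 of them over 0.1) and different-numbered ones at -0.049 (72 pairs, 24 over 0.1). Of 16 arrays 9 matched their own number best, a hint of a shared factor in the data that the labels do not give, so the numbers were not taken to pair animals. Both probes lost their calls with quantile normalization (0.017 and -0.012), no scaling (0.21 and 0.22), median centring (0.0060 and 0.017) and spike-in scaling (0.11 and 0.12), where 0 of 2 were called, and were called higher with the percentile over all probes (0.15 and 0.16).

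Differences that were not called changed sign in places. The miR-21 sex difference was -0.0056 with no scaling, -0.078 with spike-in scaling and -0.0031 to 0.025 leaving out each array, below 0 without NHR female 2. The miR-21 interaction was -0.033 with the percentile over all probes, -0.13 with no scaling, -0.012 with median centring, -0.058 with spike-in scaling, -0.087 in the authors' deposited table and -0.035 within slide 1. With normexp and its offset of 50, the miR-21* strain difference was -0.24 (limma adjusted p = 0.0394) and its interaction 0.081. The miR-21* sex difference was 0.0099 with the total gene signal and 0.034 within slide 1. The arm difference by strain was 0.15 with normexp and 0.16 in the authors' deposited table, and with a floor 4 times higher, where miR-21* is at the floor on every array, it equals the miR-21 difference, -0.13 (adjusted p = 0.00124); miR-21* itself then gives no value. The share by strain was 0.090 percentage points with normexp, and the arm difference by sex -0.0065 within slide 1.

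Of the 35 tested members of the fibrosis and stress list 22 were called as reported, beside 54.5% of all 233 tested. With no scaling 8 were called, beside 16.3% of all tested higher and 4.29% lower. It was 13 with median centring, beside 23.2% and 14.2%, and 3 with spike-in scaling, beside 6.44% and 4.29%. The number of miRNAs called between strains, 127 as reported, was 70 with the total gene signal, 48 with no scaling, 25 with spike-in scaling, 15 in the authors' deposited table, 37 and 47 within slides 1 and 2, 74 with the brightness covariate and 55 over arrays above 400.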
